A study of Mus musculus with 36 samples.

Results

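The 200 transcripts described here carried the most ribosome footprints per length of coding sequence in unstressed mouse embryonic fibroblasts. They were chosen by the mean footprint value (RPKM, reads scaled to transcript length and library total) of the 2 unstressed footprint libraries, after leaving out 4 transcripts, 2 of which would have ranked among the 200. They are 200 of 8446 transcripts that passed the filter on low values in both assays, and all 200 passed it. The cells were fibroblasts grown from embryos of C57BL/6J mice, stressed by adding sorbitol to the medium, which raises its osmolarity and draws water out of the cells. Cells were left unstressed or held at 500 or 600 mOsm, each for 2 h, or at 700 mOsm for either 15 min, called the short exposure, or 2 h, called the long exposure. Further cells are labelled as recovered for 15 min or 2 h following the short or the long exposure. Each of these 9 conditions had 2 footprint and 2 RNA libraries. All libraries came from cytoplasmic extracts, and the footprints from gradient fractions of single ribosomes and heavier, with cycloheximide in the lysis buffer. The deposited lists identify transcripts by Ensembl identifier with no gene name, so members are called by their rank in unstressed footprints and their coding length. Their gene roles, and the fibroblast markers of the culture, were not examined here.

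A ribosome protects a short piece of mRNA from nuclease, and sequencing these pieces counts the ribosomes on each coding sequence. The number of footprints on a transcript depends on how much of its mRNA there is and on how many ribosomes each mRNA carries, and the ratio of footprints to RNA is called translational efficiency. Hyperosmotic stress is known to repress translation in mammalian cells, and a small set of abundant mRNAs takes a large part of the ribosomes in growing cells.

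The values that chose the members ranged over more than an order of magnitude. Rank 1, a coding sequence of 90 codons, had 14296 and 14261 RPKM in the 2 unstressed libraries. Rank 100 had a mean of 1789 RPKM and rank 200 a mean of 931.8 RPKM. The next 2 transcripts, just outside the list, had 927.1 and 926.5 RPKM, so the edge of the list is not a gap in the data. Nearly the same list came from either unstressed library alone, with 198 and 199 of the members among its 200 highest.

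The members had short coding sequences. Their median was 158.5 codons, with quartiles of 111.8 and 246, against a median of 443 codons over all 8446 transcripts. Of the members, 31 had up to 100 codons, 93 had over 100 and up to 200, 56 had over 200 and up to 400, and 20 had over 400 and up to 800. No member was longer than 800 codons, a class that held 19.95% of all transcripts. The untranslated part of the transcript was also short, with a median of 460 nt against 1112 nt, and it was at most 250 nt in 61 members, or 30.5%, against 8.087% of all transcripts. Coding and transcript lengths were solved from the deposited values and are not annotations.

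The members' RNA was abundant but did not rank as their footprints did. In unstressed cells their median RNA level was 580.5 scaled FPKM (fragments scaled to length and library total, then scaled between libraries), with a range of 25.49 to 4796 scaled FPKM, against a median of 16.35 over all transcripts. The members' log2 ratio of footprints to RNA had a median of 1.81, against 0.64 over all transcripts, and ran from -2.265 to 5.682. This ratio holds the footprint values that chose the members. Of the 200 members, 129 were also among the 200 highest RNAs of unstressed cells, and the lowest stood at place 3086. Across the members, footprint and RNA levels had a Spearman correlation of 0.58 in unstressed cells, given as a description over 200 transcripts measured in the same libraries.

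**Figure D1:**
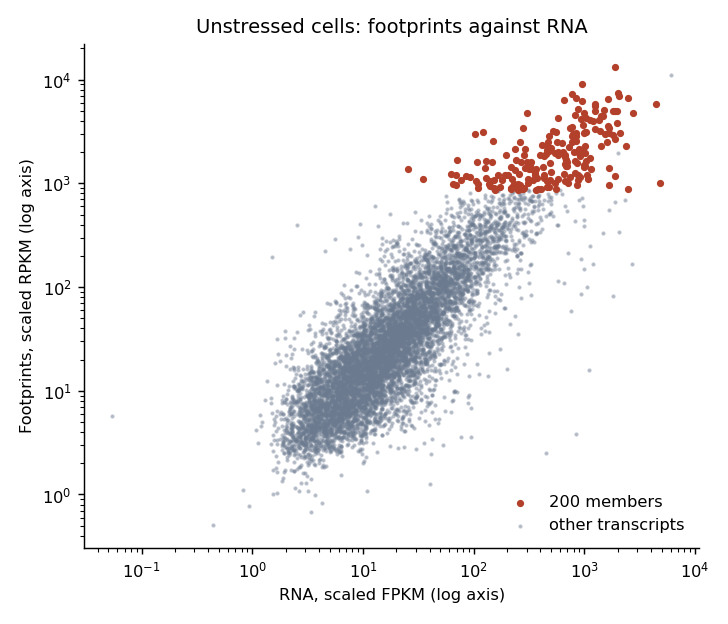
Footprint level (vertical, scaled RPKM, log axis) against RNA level (horizontal, scaled FPKM, log axis) in unstressed cells, each the mean of 2 libraries, with 1 point per transcript. The 200 members lie highest on the vertical axis by choice, with 2 of the left-out transcripts in grey beside them, but their RNA levels run from 25.49 to 4796 scaled FPKM and overlap those of the other transcripts.

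Facts of the libraries bear on what follows. Between 732779 and 9102153 footprint reads fell on listed transcripts in a library, fewest at 700 mOsm, where the least-covered member had 20 reads in a library. Paired footprint libraries were almost as close as counting noise allows. Over all transcripts chi-square divided by its degrees of freedom lay between 1.003 and 1.081, with 1 for noise alone, and over the members 1.054 to 1.412. They were counted as 1 sample, so footprint values carry no SD and no test. RNA pairs differed by more, 3.444 to 47.08 over all transcripts, and were kept as n = 2. The widest RNA pair was the unstressed one, in which the members' log2 difference between libraries had an SD of 0.25. The RNA libraries labelled as 15 min exposure with 2 h of recovery and as 2 h exposure with 15 min of recovery have names on their lists that read the other way round. The labels are followed here, and RNA results of these 2 conditions carry that doubt. Cells were measured in bulk, so fewer cells holding an RNA and less RNA per cell cannot be told apart. Each change is relative to the typical abundant transcript of the assay. For footprints, scaling raised every value at 700 mOsm against unstressed cells by 0.56 after 15 min and 0.47 after 2 h on the log2 scale.

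The members took a larger part of all footprints as the stress became stronger. Their share of footprint reads was 28.17% and 28.2% in the 2 unstressed libraries, 29.04% and 29.02% at 500 mOsm. The 600 mOsm libraries had 33.96% and 34.1%. In the short exposure the share was 36.07% and 35.86%, and in the long exposure 42.64% and 42.61%. The share needs no scaling between libraries, and the 95% Wilson intervals of single libraries reached at most 0.11 percentage points to either side, which covers counting error only. The unstressed share rests on the footprint values that chose the members, so differences from it are a description. In recovery the share averaged 28.02% and 27.83% at 15 min and 2 h after the short exposure, and 30.22% and 29.51% after the long one. The 4 libraries at 700 mOsm lay above all libraries of the other 7 conditions.

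The members' share of RNA reads moved less. It was 17.84% ± 0.203 in unstressed cells, 17.14% ± 0.013 at 500 mOsm and 18.18% ± 0.0181 at 600 mOsm (mean ± SD, n = 2 libraries each). In the short exposure the RNA share was 22.31% ± 0.00921 and in the long one 22.8% ± 0.246. Both libraries at each 700 mOsm exposure were above both unstressed libraries. An exact permutation test (two-sided) of 2 against 2 cannot go below 0.333, and each of the 8 conditions against unstressed cells gave 0.333. In recovery the RNA share was 16.56% ± 0.0622 at 2 h after the long exposure and 17.61% ± 0.0711 at 15 min after the short one, both below the unstressed mean. It was 19.25% ± 0.0629 in the libraries labelled 2 h after the short exposure and 18.05% ± 0.0577 in those labelled 15 min after the long one.

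**Figure D2:**
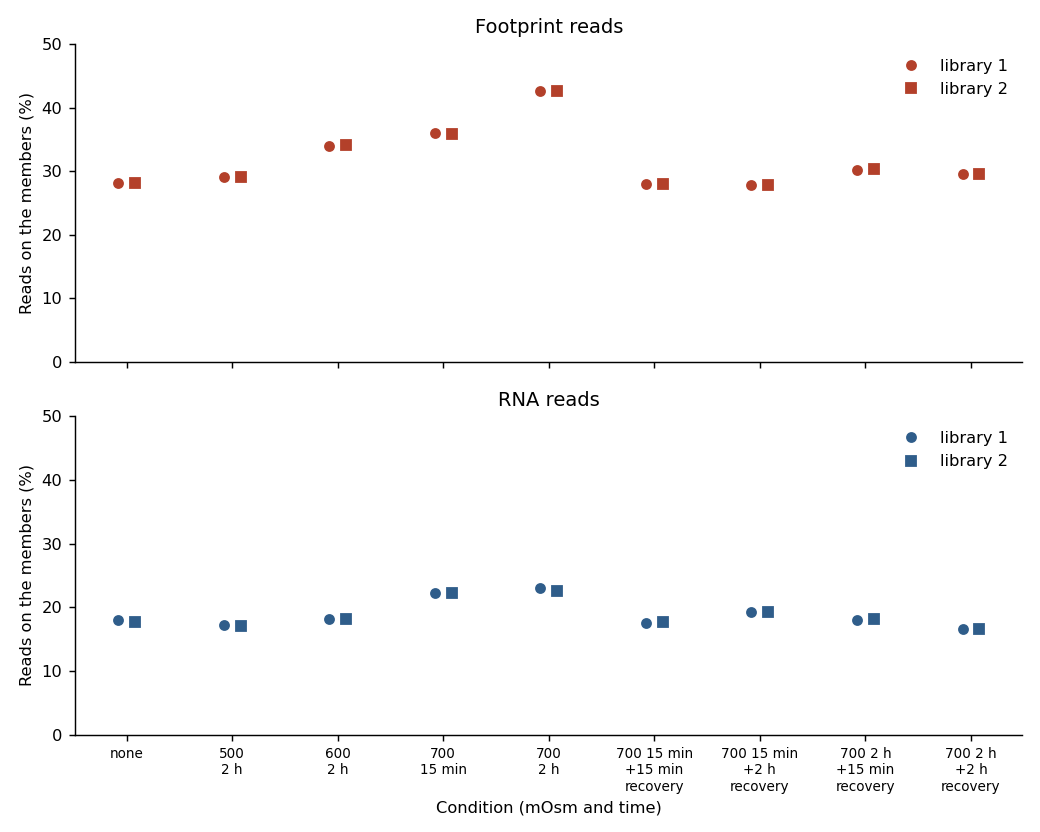
Share of reads on the 200 members (vertical, %) in each of the 18 footprint libraries (top) and 18 RNA libraries (bottom) by condition (horizontal), with circles for library 1 and squares for library 2. Footprint shares average 42.62% at 700 mOsm for 2 h and 28.18% in unstressed cells, while RNA shares average 22.8% and 17.84% in the same conditions.

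The members' RNA rose at 700 mOsm. After 15 min, 162 of 200 rose and 2 fell, against 19.3% risen and 30.5% fallen among the 9275 transcripts tested. After 2 h, 154 rose and 12 fell, against 18.7% risen and 31% fallen (limma over all transcripts, Benjamini-Hochberg adjusted p under 0.05, n = 2 libraries per condition). The labels do not say whether the libraries came from separate cultures, so these p-values measure the spread between libraries, which may be technical. The members' median log2 change was 0.51 after 15 min and 0.53 after 2 h, against -0.06 and -0.05 over all transcripts. In 175 members both libraries at 15 min lay above both unstressed libraries, and in 158 both libraries at 2 h did. The same counts over all transcripts are not given here, so these 2 counts describe the members only. The next 200 transcripts by the same unstressed footprint value stood between the members and the rest, with 66% risen after 15 min and 56% after 2 h. The 600 after those had 57.5% and 45.5% risen.

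At milder stress the number of members with called RNA depended on the fit. At 500 mOsm 1 member rose and 20 fell, against 1.55% risen and 1.89% fallen among all transcripts (limma, n = 2). At 600 mOsm 20 rose and 20 fell, against 3.87% and 9.11%. With equal weights 45 rose at 600 mOsm, and with voom on recovered reads 79 did. For these counts and those with a library left out, the share of all transcripts called is not given here. They cannot be set against the shares of the fit above. Without unstressed replicate 1 or 2, 4 and 12 members rose at 600 mOsm, and without 600 mOsm replicate 1 or 2, 4 and 8 did. Without unstressed replicate 2, 13 fell. Between neighbouring doses, 59 members rose and 1 fell at 600 against 500 mOsm, against 6.38% and 10.4% of all transcripts. With any 1 of the 4 libraries left out, 23 to 25 rose and 0 fell. At 700 against 600 mOsm, both for 2 h, 167 rose and 13 fell, against 17.5% and 33%.

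The RNA at 700 mOsm differed between the exposure times in both directions. At 2 h against 15 min, 56 members rose and 63 fell, against 22.4% and 28.6% of all transcripts (limma, n = 2). The members' median change between these times was -0.03 on the log2 scale.

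RNA of most members came down when the stress was removed. At 15 min of recovery from the short exposure, 184 of 200 fell and 6 rose relative to 700 mOsm for 15 min, against 27.3% fallen and 40.9% risen among all transcripts (limma, n = 2). At 15 min of recovery from the long exposure, 139 fell and 29 rose relative to 700 mOsm for 2 h, against 29% and 38.8%. At 2 h of recovery from the long exposure, 160 fell and 16 rose, against 24.1% and 42.1%. These 3 comparisons share no sample with the unstressed group, but each shares its 700 mOsm libraries with the comparison of that exposure with unstressed cells. From 15 min to 2 h of recovery, 97 members rose and 37 fell after the short exposure, against 22.8% and 27.3%, and 32 rose and 111 fell after the long one, against 37.1% and 26.1%.

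Relative to unstressed cells, the recovering cells still differed in part of the members' RNA. At 15 min after the short exposure 35 rose and 18 fell, against 4.39% and 2.59% of all transcripts. At 2 h after it 67 rose and 4 fell, against 4.92% and 8.37%. At 15 min after the long exposure 67 rose and 18 fell, against 8.09% and 6.27%. At 2 h after it 20 rose and 35 fell, against 13.9% and 8.28% (limma, n = 2 libraries each). Each of these counts moved by over 1.5 times without 1 of the unstressed libraries. The counts with a library left out are of members only, with no share over all transcripts. Without unstressed replicate 2, 8 rose and 6 fell at 15 min after the short exposure, and 17 rose and 6 fell at 15 min after the long one. Without unstressed replicate 1, 37 rose and 1 fell at 2 h after the short exposure, and 9 rose and 10 fell at 2 h after the long one. Leaving out a recovery library moved some counts as far. At 2 h after the short exposure, 2 fell without its replicate 1 and 32 rose without its replicate 2, and 9 fell without unstressed replicate 2. At 15 min after the long exposure 44 rose and 10 fell without its replicate 2. The median log2 changes of the members were between -0.04 and 0.19.

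**Figure D3:**
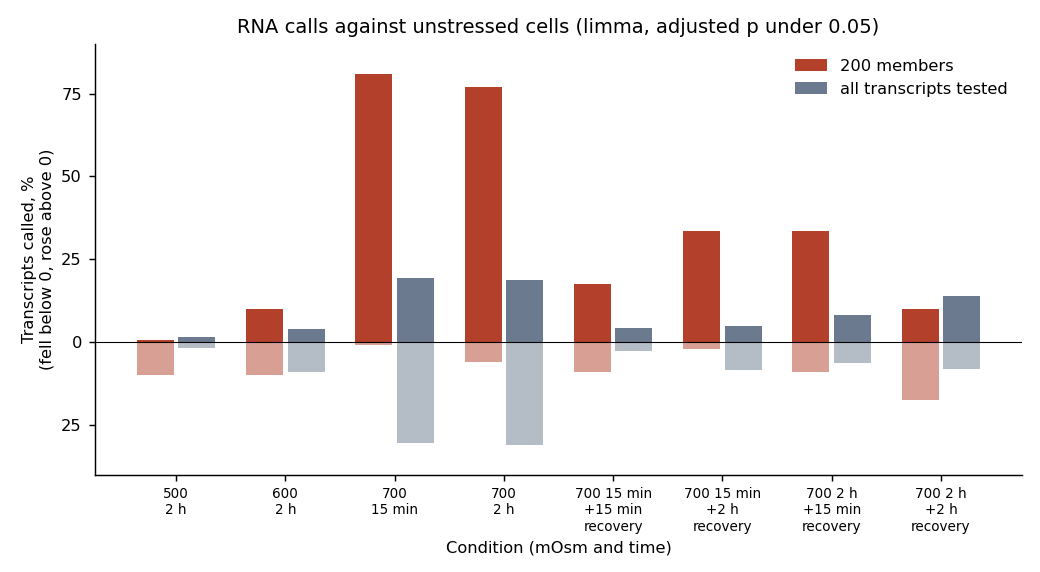
Percent of transcripts whose RNA rose (above 0, full colour) or fell (below 0, pale) against unstressed cells in each condition (limma, adjusted p under 0.05), for the 200 members (left bars) and all 9275 transcripts tested (right bars). At 700 mOsm 81% of members rose after 15 min and 77% after 2 h, against 19.3% and 18.7% of all transcripts.

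Footprints of the members spread apart at 700 mOsm. These contrasts with unstressed cells use the values that chose the members, so the background is printed and nothing is read from it. In the short exposure 93 members stood 2-fold or more above their unstressed value and 35 stood 2-fold or more below it, beside 17.2% and 46.9% of 8849 transcripts. In the long exposure 94 were higher and 23 lower, beside 16.6% and 45.5%. The members' median log2 change was 0.82 after 15 min and 0.88 after 2 h. The values ran from -3.57 to 3.40 after 15 min and from -3.20 to 3.42 after 2 h. On the values as deposited, without scaling between libraries, the medians were 0.26 and 0.40. The counts became 64 higher and 53 lower in the short exposure, beside 8.61% and 55.5%, and 69 higher and 38 lower in the long exposure, beside 10.5% and 54.6%. Of the members 81 were at least 2-fold higher at both times and 21 lower at both, and none was higher at one and lower at the other. The 2 exposures were each set against the same unstressed libraries, which favours agreement between them. The same overlap over all transcripts is not given here.

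At milder stress the footprints of most members differed by less than 2-fold from unstressed cells, with a few far lower. At 500 mOsm no member was 2-fold higher and 12 were 2-fold lower, beside 0.768% and 16.6% of all transcripts, with a median of -0.03 and a range of -3.33 to 0.75 on the log2 scale. At 600 mOsm 10 were higher and 16 lower, beside 3.77% and 35%, with a median of 0.28 and a range of -4.03 to 1.27. On scaled values the lowest at 600 mOsm is thus below the lowest at 700 mOsm. As deposited the lowest was -3.91 at 600 mOsm, -4.13 at 700 mOsm for 15 min and -3.67 for 2 h, so this order depends on the scaling. In recovery the members lay close to their unstressed values. At 15 min after the short exposure 1 was 2-fold higher and 0 lower, beside 0.61% and 0.52%, and at 2 h after it 0 were higher or lower, beside 0.667% and 0.249%. After the long exposure 6 were higher and 3 lower at 15 min, beside 1.83% and 5.1%, and 3 were higher and 4 lower at 2 h, beside 3.88% and 7.14%.

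Between stressed and recovering conditions, which the choice of members did not use, footprints gave the same order of sizes. These comparisons set 1 sample against 1 and have no test. At 700 against 600 mOsm, both for 2 h, 84 members were 2-fold or more higher and 5 lower, beside 15.9% and 19.9% of all transcripts, with a median log2 change of 0.80 against -0.01 over all. As deposited, 27 were higher and 23 lower, beside 6.6% and 33.6%. At 600 against 500 mOsm 0 were higher and 6 lower, beside 1.38% and 19%, with a median of 0.30 against -0.24 over all. At 700 mOsm for 2 h against 15 min, 18 were higher and 13 lower, beside 20.8% and 15.1%. At 15 min of recovery from the short exposure against that exposure, 90 were lower and 30 higher, beside 17.3% and 46.4%. The members' median was -0.86, against 0.75 over all transcripts, on the log2 scale. As deposited, 56 were lower and 54 higher, beside 8.28% and 55.3%. At 15 min and at 2 h of recovery from the long exposure, 92 and 95 were lower and 20 and 21 higher than at 700 mOsm for 2 h. For all transcripts these shares were 14.1% and 15.2% lower, and 39.5% and 40.1% higher. As deposited, 55 and 68 were lower, beside 6.59% and 8.81%, and 32 and 36 higher, beside 51.1% and 49.6%. From 15 min to 2 h of recovery, 0 members moved 2-fold in either direction after the short exposure, beside 0.531% higher and 0.452% lower. After the long one 2 were higher and 2 lower, beside 4.43% and 2.85%.

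**Figure D4:**
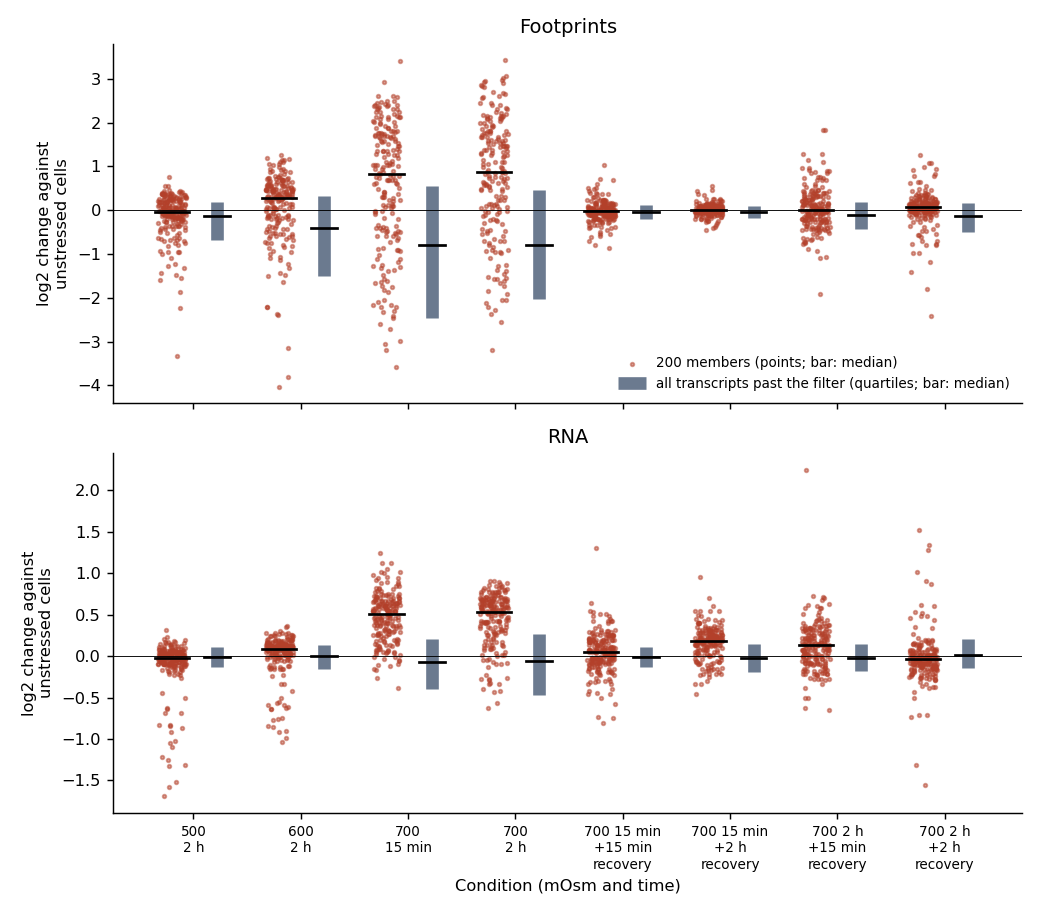
Log2 change against unstressed cells (vertical) of footprints (top) and RNA (bottom) in the 8 stressed and recovering conditions (horizontal). Points are the 200 members with their median as a bar, and grey bars are the quartiles of all transcripts with their median. Member footprints run from -3.57 to 3.40 at 700 mOsm for 15 min, and RNA changes stay within a narrower range.

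The members kept more of the highest places in recovery than at 700 mOsm. Of the 200 members, 172 were among the 200 highest footprints at 500 mOsm and 165 at 600 mOsm. The short exposure left 138 there and the long one 137. In recovery the numbers were 188 and 195 at 15 min and 2 h after the short exposure, and 174 and 181 after the long one. The 110 members that stood among the 200 highest in all 9 conditions had a median of 146 codons, and the other members 200 codons. For RNA, 125 to 135 members were among the 200 highest in each of the 9 conditions.

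Changes in footprints and in RNA were correlated across the members at 700 mOsm. The Spearman correlation of the log2 changes against unstressed cells was 0.62 after 15 min and 0.60 after 2 h, over 200 transcripts that share libraries, while it was 0.23 at 500 mOsm and 0.27 at 600 mOsm. Over all 8446 transcripts it was 0.44 after 15 min and 0.42 after 2 h, 0.12 at 500 mOsm and 0.31 at 600 mOsm. The footprint changes hold the unstressed values that chose the members, so these correlations are a description. The footprint changes were larger than the RNA changes. Across members at 700 mOsm for 2 h, the SD of the log2 change was 1.37 for footprints and 0.325 for RNA. The change in translational efficiency, taken as that of footprints less that of RNA, had a median of 0.29 after 15 min and 0.46 after 2 h, which as deposited became -0.21 and 0.08. It was at least 2-fold higher in 61 members and 2-fold lower in 43 after 15 min, beside 14.9% and 45% of 8446 transcripts, or 24 and 62 as deposited, beside 7.36% and 53.2%. After 2 h it was higher in 64 and lower in 31, beside 14.4% and 39.5%, or 40 and 42 as deposited, beside 8.44% and 47.3%. At 600 mOsm 8 were higher and 16 lower, beside 2.6% and 34.8%, and at 500 mOsm 0 were higher and 5 lower, beside 0.343% and 16.8%. The sign of the median after 15 min thus depends on the scaling.

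The spread of translational efficiency among the members was widest at 700 mOsm. The SD of the members' log2 ratio of footprints to RNA was 1.14 in unstressed cells, 1.28 at 500 mOsm and 1.49 at 600 mOsm. It was 1.80 in the short and 1.76 in the long exposure. In the 4 recovery conditions it was between 1.07 and 1.16. The Spearman correlation of footprint with RNA levels across members was 0.41 at 700 mOsm for 15 min and 0.40 for 2 h, against 0.58 in unstressed cells. Over all 8446 transcripts it was 0.65 and 0.68, against 0.82 in unstressed cells. The unstressed SD and correlation of the members rest on the footprint values that chose them, so these differences are a description.

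Coding length sorted the members' footprint changes at 700 mOsm, and untranslated length sorted them too. After 2 h the median log2 change was 1.81 in the 31 members of up to 100 codons, 0.98 in the 93 of over 100 and up to 200, 0.24 in the 56 of over 200 and up to 400, and 0.03 in the 20 of over 400 and up to 800. After 15 min the medians were 1.55, 1.21, 0.15 and -0.49 in the same order of classes. After 2 h the medians were 1.46, 0.65, -0.28 and -0.56 in the same classes of the next 800 ranks, and 0.91, 0.13, -0.77 and -1.06 over all transcripts outside the list. After 15 min those outside the list had 0.54, -0.14, -1.39 and -1.63. The class over 800 codons, which holds no member, broke this order with 0.27. The unstressed values in these changes chose the members, so nothing is read from the difference between lists. As deposited, the members' medians after 2 h were 1.33, 0.50, -0.24 and -0.45, so the direction of the longer classes depends on the scaling. Scaling moves all members by nearly the same log2 amount, so it could not change the order of the classes. Across the 200 members the Spearman correlation of footprint change with coding length was -0.40 at both times. With untranslated length it was -0.41 after 15 min and -0.34 after 2 h. In members of at most 250 nt untranslated the median change after 2 h was 1.53, and 0.19 in those of over 1000 nt. Which of the 2 lengths the changes follow was not tested.

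RNA calls at 700 mOsm were frequent in every class. After 15 min the RNA rose in 28 of 31 members of up to 100 codons and in 11 of the 20 of over 400, which is 90.3% and 55%. In the same classes 86.4% and 41.9% of the next 800 ranks rose, and 60.8% and 10.6% of all transcripts outside the list (limma, n = 2). After 2 h the members' shares were 90.3%, 77.4%, 71.4% and 70% from the shortest to the longest class. Those of the next 800 ranks were 62.7%, 50.6%, 44.4% and 46.5%, and those of all transcripts outside the list 43.4%, 31.4%, 21.4% and 14.8%.

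**Figure D5:**
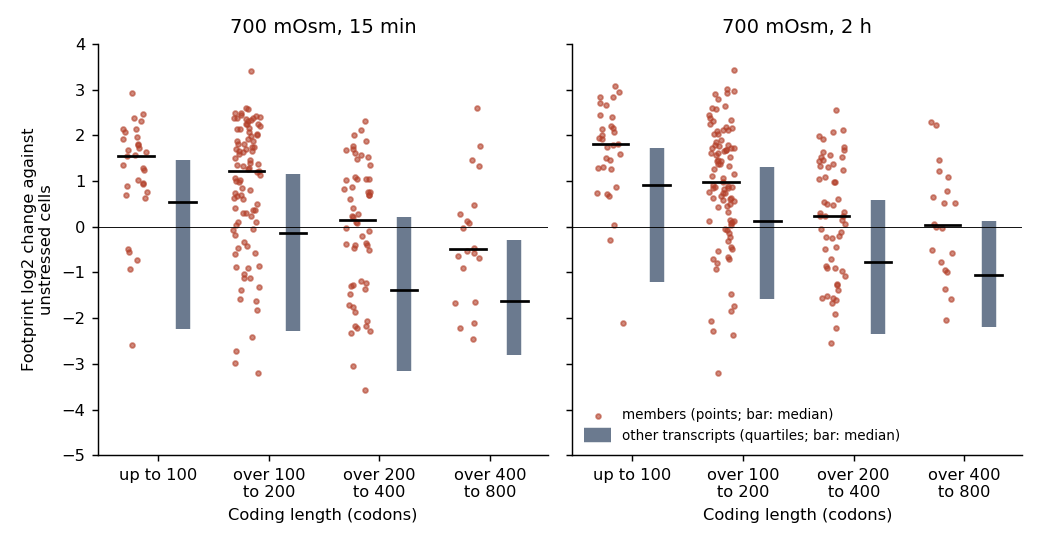
Footprint log2 change against unstressed cells (vertical) by coding length class (horizontal, codons) at 700 mOsm for 15 min (left) and 2 h (right). Points are members with their median as a bar, and grey bars are the quartiles of all other transcripts of the class with their median. After 2 h the members' medians are 1.81, 0.98, 0.24 and 0.03 from the shortest to the longest class.

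The 2 members with the largest RNA rise and the 2 with the largest RNA fall at 700 mOsm for 2 h, among those past the threshold whose libraries did not overlap, behaved differently in footprints. ENSMUST00000008812, of 153 codons and rank 176, had 3134.5 and 3120.6 scaled FPKM of RNA at 700 mOsm for 2 h, against 1633.5 and 1699.2 in unstressed cells. Its log2 change was 0.91 (SE 0.0999, limma adjusted p = 2.16e-06). Its footprints were 1616.8 and 1617.3 scaled RPKM, against 971.6 and 973.7 in unstressed cells, so both quantities were higher in the stressed libraries. ENSMUST00000203816, of 136 codons and rank 26, had 1688.8 and 2212.5 scaled FPKM of RNA at 700 mOsm for 2 h, against 1062.7 and 1001.0 in unstressed cells. Its RNA change was 0.91 (SE 0.149, limma adjusted p = 0.000111). Its footprints were lower, at 2593.6 and 2646.1 scaled RPKM against 4290.7 and 4259.9, although its RNA rose.

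The footprints of ENSMUST00000203816 were lower than in unstressed cells at each dose. At 500 mOsm they were 2492.3 and 2411.9 scaled RPKM, and the 600 mOsm libraries had 1545.1 and 1521.8. In the short exposure they were 1441.8 and 1336.3, and in the long one as given above. At 15 min of recovery from the short exposure they were 4487.6 and 4367.8 scaled RPKM, above the unstressed values.

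The 2 members whose RNA fell most had lower footprints as well. ENSMUST00000109103, of 333 codons and rank 115, had 446.6 and 446.2 scaled FPKM of RNA at 700 mOsm for 2 h, against 733.5 and 652.8 in unstressed cells. Its change was -0.63 (SE 0.0694, limma adjusted p = 2.15e-06). Its footprints were 514.1 and 514.2 scaled RPKM, against 1453.8 and 1495.8 in unstressed cells. At 2 h of recovery from the long exposure they were 1373.3 and 1371.4 scaled RPKM. ENSMUST00000052798, rank 124, has a solved coding length of 481 nt, the only one among the members that is not a multiple of 3. It had 215.6 and 211.9 scaled FPKM of RNA at 700 mOsm for 2 h, against 348.6 and 285.4 in unstressed cells. Its change was -0.56 (SE 0.0895, limma adjusted p = 8.68e-05). Its footprints were 260.7 and 272.9 scaled RPKM, against 1356.3 and 1411.9 in unstressed cells, a larger difference than in its RNA.

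Some members had fewer footprints at 500 mOsm with no RNA call. These and the following members are named by rank and were chosen after their values were seen. Of the 12 members whose footprints were at least 2-fold lower at 500 mOsm, 8 also had fallen RNA. The other 4 had RNA changes between -0.13 and -0.00. Rank 164, of 323 codons, had 101.3 and 105.7 scaled RPKM at 500 mOsm, against 1042.8 and 1053.6 in unstressed cells. Its RNA was 672.5 and 664 scaled FPKM, against 687.4 and 653.2 in unstressed cells, and these overlap. At 15 min of recovery it had 652.5 and 632 scaled RPKM after the short exposure, below the unstressed values, and 1876.5 and 1940.7 after the long exposure, above them.

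Rank 191, of 196 codons, had fewer footprints at every dose than in unstressed cells. It had 900.2 and 880.1 scaled RPKM in unstressed cells, and 191.2 and 187.3 at 500 mOsm. The 600 mOsm libraries had 52.83 and 54.04, and those of the long exposure 96.41 and 96. The long-exposure value rests on 33 and 40 reads. Rank 33, of 173 codons, had 369.3 and 424.1 scaled RPKM at 700 mOsm for 15 min, against 3627.4 and 3668.8 in unstressed cells. Its RNA was 1333.4 and 1335.2 scaled FPKM at 700 mOsm for 15 min, against 1055.1 and 892.5 in unstressed cells. At 15 min of recovery from that exposure it had 3735.7 and 3716.5 scaled RPKM of footprints, again near the unstressed values.

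Other members had more footprints at each higher dose. Rank 172, of 107 codons, had 1015.0 and 951.4 scaled RPKM in unstressed cells, and 1302.3 and 1263.6 at 500 mOsm. The 600 mOsm libraries had 2166.1 and 2168.3, and those of the long exposure 10403.4 and 10591.0. Its RNA was 181 and 205.5 scaled FPKM at 700 mOsm for 2 h, against 103.7 and 114.9 in unstressed cells. Rank 1 had 59628.5 and 58938.2 scaled RPKM at 700 mOsm for 2 h, against 13230.3 and 13268.5 in unstressed cells. Both transcripts stood near their unstressed footprint values at 2 h of recovery from the short exposure, with 872.2 and 846.2 scaled RPKM for rank 172 and 12332.6 and 12507.6 for rank 1. In recovery from the long exposure both stayed above their unstressed values. Rank 172 had 1884.4 and 1800.1 scaled RPKM at 15 min and 1252.0 and 1238.3 at 2 h. Rank 1 had 17259.7 and 17355.6 at 15 min and 14457.6 and 14467.5 at 2 h.

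The 20 members whose RNA fell at 500 mOsm had coding lengths of 68 to 515 codons, with some lengths recurring. Of them 16 had at most 250 nt of untranslated sequence, out of 61 such members, and 10 had a coding length of exactly 104 or 127 codons, out of 14 members with these lengths, which are those shared by 4 or more members. Over all 8446 transcripts, 15 had 104 codons and 18 had 127. Transcripts of equal length may be near-identical copies between which reads are shared, and the files do not show how such reads were counted, so the values of single transcripts in this subset are uncertain. The median RNA level of the 20 was 430.5 and 446.3 scaled FPKM at 500 mOsm, against 683.6 and 924.1 in unstressed cells. In all 20 both libraries at 500 mOsm lay below both unstressed ones. The 20 were chosen by this same difference, so these values are a description. The 2 unstressed libraries differed by a median of -0.42 on the log2 scale over these 20 (replicate 1 minus replicate 2), and the part of that difference in the result was not tested. With each of the 4 libraries left out in turn, 16 to 20 members were called.

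The footprints of these 20, by their median, were lower at 500 mOsm than in unstressed cells and highest in the short exposure. Their median was 1421 and 1404 scaled RPKM in unstressed cells, and 766.7 and 779.6 at 500 mOsm. The 600 mOsm libraries had a median of 1081.6 and 1081.9. The median was 5069.3 and 5247.5 in the short exposure, and 2648.9 and 2600.7 in the long one. At 700 mOsm for 15 min 15 of the 20 were at least 2-fold higher than in unstressed cells and 1 was lower, beside 93 and 35 of the 200 members and 17.2% and 46.9% of all transcripts. After 2 h 6 of the 20 were at least 2-fold higher and 1 was lower, beside 94 and 23 of the members and 16.6% and 45.5% of all transcripts. RNA of 16 of the 20 rose at 700 mOsm for 15 min, beside 81% of the 200 members and 19.3% of all transcripts. After 2 h only 8 rose, beside 77% of the members and 18.7% of all transcripts. At 600 mOsm RNA of 18 of the 20 fell, beside 10% of the members and 9.11% of all transcripts. The RNA counts at 600 and 700 mOsm against unstressed cells use the unstressed libraries by which the 20 were chosen. They are thus not an independent repeat of the fall at 500 mOsm, and nothing is read from the shares beside them. RNA of all 20 rose at 700 against 600 mOsm, beside 83.5% of the members and 17.5% of all transcripts (limma, n = 2). These 20 were not tested against the rest of the list. Rank 138, of 137 codons, had 12901.8 and 12637.9 scaled RPKM in the short exposure and 507.8 and 454.5 scaled RPKM at 500 mOsm, against 1199.3 and 1211.6 in unstressed cells. Its RNA was 558.1 and 538.5 scaled FPKM at 700 mOsm for 15 min, against 259.7 and 449.5 in unstressed cells.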

How the data were processed

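Ribosome profiling and RNA sequencing of 36 libraries were analysed, 2 per assay in each of 9 conditions. The labels' protocols describe cultures of about the same confluence treated with sorbitol, cytoplasmic lysis, and footprints taken from gradient fractions. Reads were handled with cutadapt, Bowtie and STAR on GRCm38, per the submitters' processing notes. Versions, annotation and counter, not given in the sources used here, could not be checked. The authors deposited RPKM for footprints and FPKM for RNA, in lists that leave out transcripts with no value. The members and lists were chosen with earlier results of these data known.

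Values were whole multiples of the worth of 1 read, from which reads, totals and lengths were solved. Depth was 732779 to 9102153 footprint reads and 6851958 to 55262396 RNA reads per library. Libraries were scaled by the median ratio over 4619 footprint and 5705 RNA transcripts with a mean of at least 10, and transcripts averaging 2 or more after scaling were kept. Changes are differences of log2(value + 1), which understates changes of low values. The RNA test was limma (version 3.58.1, R 4.3.3) over all 9 conditions, with weights per condition, a trend and Benjamini-Hochberg adjustment over 9275 transcripts. Footprint pairs were counted as 1 sample and changes of 2-fold counted without a test. The scripts were tested on simulated data and ran in Python 3.11.15.

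The 2 transcripts with the largest RNA rise and the 2 with the largest fall at 700 mOsm for 2 h are named. Gene lists and cell type markers were not used here, because the identifiers are not paired with gene names. Alternatives were values as deposited, a pseudocount of 0.25, no filter, equal weights, the replicate block, fitting only the compared conditions, voom on recovered reads, the 100 highest members, and each library left out.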

Additional observations from a re-analysis of the deposited data

Results flagged for a closer look

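The RNA of all 4 named members differed between the 2 exposures to 700 mOsm, by the test of 2 h against 15 min itself. ENSMUST00000008812 was higher after 2 h by 0.28 on the log2 scale (SE 0.0709, limma adjusted p = 0.00348), and both of its libraries at 2 h lay above both at 15 min. ENSMUST00000203816 was higher after 2 h by 0.29 (SE 0.106, limma adjusted p = 0.0336). ENSMUST00000109103 changed by -0.52 (SE 0.0492, limma adjusted p = 6.19e-07), and ENSMUST00000052798 by -0.51 (SE 0.0635, limma adjusted p = 9.08e-06), with both libraries at 2 h below both at 15 min in each. These 4 were named for their RNA at 2 h, which is part of this difference.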

How the results depend on the processing

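The rise of member RNA at 700 mOsm kept its count within 1.5 times under every alternative run, with 142 to 158 after 15 min and 143 to 150 after 2 h when 1 library was left out. For the between-condition comparisons, leaving out libraries was chosen after seeing the data. The cause of the differences below was not tested. Same-numbered deviations correlated over 0.1 in 0 of 36 footprint and 6 of 36 RNA pairs of conditions. The RNA correlations ran from -0.307 to 0.308 with a median of 0.00723, and what some RNA libraries share was not tested. The replicate block moved 1 count, RNA risen at 500 mOsm, to 2 instead of 1.

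RNA risen and fallen moved most under other fits. These counts are of members only, without the share of all transcripts called under each fit. At 500 mOsm the 1 risen became 2 with no filter, 4 with equal weights, 0 with only the 2 groups, 10 with voom and 1 of the 100 highest, and 0 to 2 with a library left out, and the 20 fallen became 31 with voom. At 600 mOsm the 20 risen became 45 with equal weights, 4 with only the 2 groups, 79 with voom and 4 to 12 with a library left out, and the 20 fallen 13 to 20. At 700 mOsm for 15 min the 2 fallen became 7 as deposited, 4 with equal weights, 2 of the 100 highest and 2 to 4 with a library left out. At 15 min after the short exposure the 35 risen became 58 with equal weights, 11 with only the 2 groups, 66 with voom and 8 to 35 with a library left out, and the 18 fallen became 7 with only the 2 groups, 31 with voom and 6 to 17. At 2 h after it the 67 risen became 112, 13, 136 and 32 to 66 under the same 4 settings, and the 4 fallen became 7 as deposited, then 13, 0, 11 and 1 to 9. At 15 min after the long exposure the 67 risen became 37 with only the 2 groups and 17 to 63 with a library left out, and the 18 fallen became 29 with equal weights, 7 with only the 2 groups, 27 with voom and 6 to 18. At 2 h after it the 20 risen became 9 to 21 with a library left out, and the 35 fallen became 21 with no filter, 12 with only the 2 groups, 67 with voom and 10 to 43. At 600 against 500 mOsm the 59 risen became 23 to 25 and the 1 fallen 0 to 0 with a library left out.

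Footprint counts moved mainly with scaling. As deposited, the 10 higher at 600 mOsm became 16, and the lower at 700 mOsm became 53 after 15 min and 38 after 2 h. As deposited, 600 against 500 mOsm had 2 higher, 700 against 600 mOsm 27 higher and 23 lower, 15 min of recovery from the short exposure 54 higher and 56 lower, from the long one 32 and 55, and 2 h of recovery from the long one 36 higher. From 15 min to 2 h of recovery there were 1 lower after the short and 1 higher after the long exposure. With a library left out, 600 against 500 mOsm had 0 to 2 higher, the short recovery at 15 min 0 to 1 higher, and its later step 0 to 1 lower. Of the 100 highest, 1 was higher at 600 mOsm, 1 at 15 min after the short exposure, 0 lower at 15 min and 1 at 2 h after the long one. Translational efficiency as deposited was 2-fold higher in 2 and lower in 3 members at 500 mOsm, and higher in 15 at 600 mOsm, 24 at 700 mOsm for 15 min and 40 for 2 h. Depth limits the 700 mOsm footprints most, where the lowest member had 20 reads in a library.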
